A study of Mus musculus with 9 samples.

Results

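Nodal, Gdf3, Tdgf1, Acvr2b, Lefty1, Lefty2 and Smad7 are 7 genes of the Nodal and Lefty pathway: ligands, coreceptor, receptor, secreted antagonists and an inhibitory Smad. They were taken from the array table by the gene symbol in the platform annotation, and were chosen with earlier results of these data known. Each had 1 transcript cluster with 1 symbol among the 23002 annotated transcripts tested. RNA came from mouse embryonic stem (ES) cells of 3 genotypes, with 3 Affymetrix arrays each: Dgcr8 KO cells, Dicer KO cells and wild-type (WT) cells. WT cells were the v6.5 line. Dgcr8 KO cells carry a deletion of an exon that leaves a premature stop codon, and Dicer KO cells lack the enzyme that cuts the hairpins released by the Microprocessor, of which Dgcr8 is the RNA-binding part. Cells of all genotypes were cultured on plates with no treatment named, and whether each mutant is a single clone is not given in the sources used here. The paper describes the 3 arrays of a genotype as biological replicates and the labels describe plates set up in triplicate, so p-values may measure only the spread between cultures of a line, and effects of a mutation cannot be told apart from other differences between the lines.

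Nodal is a secreted ligand of the TGF-beta superfamily. It binds type I and type II Activin receptors, among them Acvr2b, together with the membrane-anchored coreceptor Tdgf1, also called Cripto. The receptors phosphorylate Smad2 and Smad3, which enter the nucleus with Smad4 and bind DNA with partners such as Foxh1. Targets of the pathway include Nodal itself and the Lefty genes, whose products bind Nodal and its coreceptor and so limit the signal, and Smad7, which blocks the receptors, closes a further negative loop. In the embryo the pathway patterns the epiblast, the germ layers and the left-right axis, and in mouse ES cells it is active through ligands that the cells make themselves.

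The Lefty genes are tied to the miR-290 and miR-302 families, the miRNAs of early embryonic cells that need both Dgcr8 and Dicer to mature. In zebrafish the related miR-430 is known to target lefty and Nodal-like mRNAs, and in human cells miR-302 is known to target LEFTY mRNAs. Some of their mature sequences are shown because cells that lack Dgcr8 or Dicer are known to lack these miRNAs. They are read from RefSeq of GRCm38.p6, 5′ to 3′, with bases 2 to 8, the seed that pairs with targets, in capitals. Of the 1738 mature miRNAs there, 5 had the seed AAGUGCU, all of them from these 2 families.
mmu-miR-291a-3p: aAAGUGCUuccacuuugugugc
mmu-miR-294-3p: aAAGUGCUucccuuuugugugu
mmu-miR-295-3p: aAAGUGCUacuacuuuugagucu
mmu-miR-302b-3p: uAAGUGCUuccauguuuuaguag
mmu-miR-302d-3p: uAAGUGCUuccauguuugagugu
mmu-miR-290a-3p: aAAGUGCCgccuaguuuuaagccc
mmu-miR-291b-3p: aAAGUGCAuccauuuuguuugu
The seeds of miR-290a-3p and miR-291b-3p differ from that shared seed. The miRNAs themselves were not measured on these arrays as mature RNA, and target sites in the members were not searched here.

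The table holds log2 signals that the authors normalized, from 1.63 to 14.99 over the 9 arrays, with array medians between 6.49 and 6.56. A difference of 1 on this scale is a factor of 2, and levels of different genes are not set against each other because each has its own probes. A transcript was called when limma's Benjamini-Hochberg adjusted p over all 23002 transcripts was under 0.05. The targeted genes followed the labels. Dgcr8 had a mean log2 level of 8.85 ± 0.11 in Dgcr8 KO cells, 9.99 ± 0.01 in Dicer KO cells and 9.80 ± 0.03 in WT cells (SD, n = 3 each). Dicer1 had a mean log2 level of 10.42 ± 0.04 in Dgcr8 KO cells, 8.36 ± 0.06 in Dicer KO cells and 10.20 ± 0.03 in WT cells (SD, n = 3 each). Of the variation within genotypes, 40.8% lay along a single component with WT replicate 1 and Dgcr8 KO replicate 2 at its ends. Without these 2 arrays, an alternative added after the data were seen, 4, 4 and 6 of the 7 genes were called in Dgcr8 KO against WT, Dicer KO against WT and Dgcr8 KO against Dicer KO, the same counts as with them. Of all transcripts, 36.3%, 37% and 32.8% were called without these arrays, against 33%, 36.8% and 24.6% with them. In the direct comparison the 6 genes were not the same, since Tdgf1 was lost (adjusted p = 0.0515) and Acvr2b gained (0.029).

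Lefty1, Lefty2, Gdf3 and Nodal were higher in Dgcr8 KO cells than in WT cells, with the largest differences for the Lefty genes. In Dicer KO cells Lefty1 and Gdf3 were also higher than in WT cells, though by less, Smad7 was higher and Acvr2b slightly lower. Of the 7 genes, 4 were called in Dgcr8 KO against WT, all higher. Over all transcripts, 33% were called in this comparison, 15.7% higher and 17.3% lower. In Dicer KO against WT, 3 were called higher and 1 lower, where 17.8% of all transcripts were called higher and 19.1% lower (36.8% in all). In the direct comparison of Dgcr8 KO with Dicer KO cells, 5 were called higher and 1 lower, where 11.2% of all transcripts were called higher and 13.4% lower (24.6% in all). Of all transcripts called in that comparison 45.5% were higher. The share was 32.2% after median centring of the arrays. The median log2 ratio of the 7 genes was 0.38 in Dgcr8 KO against WT, where that of all transcripts was -0.01. It was 0.02 in Dicer KO against WT, where that of all transcripts was -0.06. In Dgcr8 KO against Dicer KO it was 0.37, where that of all transcripts was 0.03. The comparisons share arrays, so their counts are not independent of each other, and in RNA from whole cultures fewer cells of a type and less RNA per cell cannot be told apart.

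**Figure D1:**
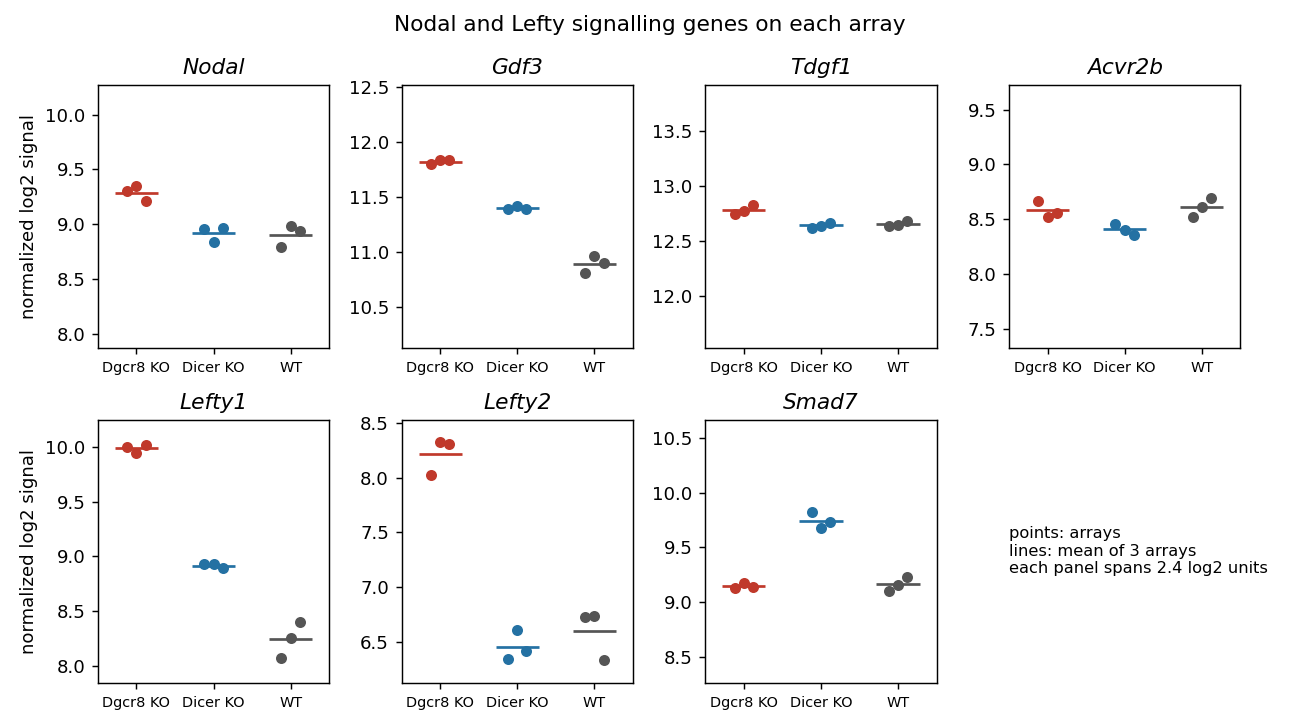
Normalized log2 signal (vertical axis) of the 7 genes on each of 3 Dgcr8 KO, 3 Dicer KO and 3 WT arrays, with a line at the mean of each genotype; each panel spans the same range of log2 units. Lefty1 falls into 3 separate groups with WT lowest, Lefty2 is high only on the Dgcr8 KO arrays, and Smad7 only on the Dicer KO arrays.

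Nodal, the ligand of the pathway, was modestly higher in Dgcr8 KO cells. Its log2 levels were 9.30, 9.35 and 9.21 on the Dgcr8 KO arrays, 8.96, 8.84 and 8.96 on the Dicer KO arrays and 8.79, 8.99 and 8.94 on the WT arrays. The Dgcr8 KO arrays lay above all the others, whereas the Dicer KO and WT arrays overlapped. The log2 ratio to WT was 0.38 in Dgcr8 KO (1.31-fold, standard error 0.0671, adjusted p = 0.00157 by limma) and 0.02 in Dicer KO (95% confidence interval -0.13 to 0.17, adjusted p = 0.87). Dgcr8 KO exceeded Dicer KO by 0.37 (adjusted p = 0.00347). The gene lies on chromosome 10, from 61417972 to 61425338 in GRCm38.p6.

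Gdf3, a ligand related to Nodal that is known to signal through the same coreceptor and to inhibit BMP signalling, was higher in both mutants. Levels on the log2 scale were 11.80, 11.83 and 11.84 on the Dgcr8 KO arrays, 11.39, 11.42 and 11.39 on the Dicer KO arrays and 10.81, 10.96 and 10.90 on the WT arrays. No array of a genotype overlapped with those of another, and the order was Dgcr8 KO, Dicer KO, WT from high to low. Relative to WT the log2 ratio was 0.93 in Dgcr8 KO (1.91-fold, standard error 0.0498, adjusted p = 9.53e-07 by limma) and 0.51 in Dicer KO (1.43-fold, standard error 0.0498, adjusted p = 3.26e-05). The mutants differed from each other by 0.42 (adjusted p = 0.000263). Gdf3 lies on chromosome 6, from 122605403 to 122610087.

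Tdgf1, the coreceptor, differed little between genotypes, with the Dgcr8 KO arrays slightly higher. Its log2 levels were 12.74, 12.78 and 12.83 on the Dgcr8 KO arrays, 12.62, 12.64 and 12.67 on the Dicer KO arrays and 12.64, 12.64 and 12.69 on the WT arrays. The Dgcr8 KO arrays did not overlap with the others, but the gap was small. The log2 ratio to WT was 0.13 in Dgcr8 KO (95% confidence interval 0.03 to 0.23, adjusted p = 0.0556 by limma) and -0.01 in Dicer KO (-0.11 to 0.09, adjusted p = 0.842). The difference between the mutants, 0.14, was just past the threshold (adjusted p = 0.0475). It stayed past it in 1 of 9 fits that each left out an array, the fit without WT replicate 1, and the adjusted p of the 9 ranged from 0.0371 to 0.148. Without WT replicate 1 and Dgcr8 KO replicate 2 together it was 0.0515. Tdgf1 lies on chromosome 9, from 110939608 to 110946158.

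Acvr2b, a type II receptor that binds Nodal and Activin, was slightly lower in Dicer KO cells. Levels on the log2 scale were 8.67, 8.52 and 8.56 on the Dgcr8 KO arrays, 8.46, 8.40 and 8.36 on the Dicer KO arrays and 8.52, 8.62 and 8.69 on the WT arrays. The Dicer KO arrays lay below all the others, and the Dgcr8 KO and WT arrays overlapped. Relative to WT the log2 ratio was -0.20 in Dicer KO (standard error 0.0611, adjusted p = 0.0266 by limma) and -0.03 in Dgcr8 KO (95% confidence interval -0.16 to 0.11, adjusted p = 0.8). The call in Dicer KO was lost when WT replicate 2 (adjusted p = 0.065), WT replicate 3 (0.0894), Dicer KO replicate 2 (0.0715) or Dicer KO replicate 3 (0.0907) was left out. The difference of 0.18 between Dgcr8 KO and Dicer KO was not called (adjusted p = 0.0652), and was called without WT replicate 1 (0.0406) and without WT replicate 1 and Dgcr8 KO replicate 2 together (0.029). Acvr2b lies on chromosome 9, from 119401583 to 119442148.

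Lefty1, a secreted antagonist that is itself a target of Nodal signalling, had the largest estimated difference from WT among the 7 genes. Its log2 levels were 10.001, 9.95 and 10.02 on the Dgcr8 KO arrays, 8.93, 8.93 and 8.89 on the Dicer KO arrays and 8.08, 8.26 and 8.41 on the WT arrays. The genotypes did not overlap, and Dicer KO cells lay between Dgcr8 KO and WT cells. The log2 ratio to WT was 1.74 in Dgcr8 KO (3.34-fold, standard error 0.0756, adjusted p = 2.83e-07 by limma) and 0.67 in Dicer KO (1.59-fold, standard error 0.0756, adjusted p = 8.66e-05). The difference between the mutants was 1.07 (2.1-fold, adjusted p = 1.26e-05).

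Lefty2, the second Lefty antagonist, was raised in Dgcr8 KO cells only. Levels on the log2 scale were 8.03, 8.32 and 8.31 on the Dgcr8 KO arrays, 6.35, 6.61 and 6.42 on the Dicer KO arrays and 6.73, 6.73 and 6.33 on the WT arrays. The Dgcr8 KO arrays were all above the others by more than 1 log2 unit, and the Dicer KO and WT arrays overlapped. Relative to WT the log2 ratio was 1.62 in Dgcr8 KO (3.07-fold, standard error 0.126, adjusted p = 9.36e-06 by limma) and -0.14 in Dicer KO (95% confidence interval -0.43 to 0.14, adjusted p = 0.418). The direct difference, 1.76 (3.39-fold, adjusted p = 1.34e-05), was the largest estimate of the 7 genes in that comparison. Lefty2 and Lefty1 are close paralogs that lie side by side on chromosome 1, from 180893108 to 180899107 and from 180935022 to 180938401, with 35914 bases between them. Whether probes of either cluster also bind the RNA of the other was not tested.

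Smad7, the inhibitory Smad that targets activated receptors for degradation, was higher in Dicer KO cells. Its log2 levels were 9.13, 9.18 and 9.14 on the Dgcr8 KO arrays, 9.82, 9.68 and 9.73 on the Dicer KO arrays and 9.11, 9.16 and 9.23 on the WT arrays. All Dicer KO arrays lay above all others, and the Dgcr8 KO values fell within the range of WT. The log2 ratio to WT was 0.58 in Dicer KO (1.49-fold, standard error 0.0545, adjusted p = 2.62e-05 by limma) and -0.02 in Dgcr8 KO (95% confidence interval -0.14 to 0.11, adjusted p = 0.87). Dgcr8 KO fell below Dicer KO, with a log2 ratio of -0.59 (adjusted p = 5.92e-05). The gene lies on chromosome 18, from 75367365 to 75395935. Smad7 was thus the member with the opposite order of the mutants to Lefty1, Lefty2, Gdf3 and Nodal.

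**Figure D2:**
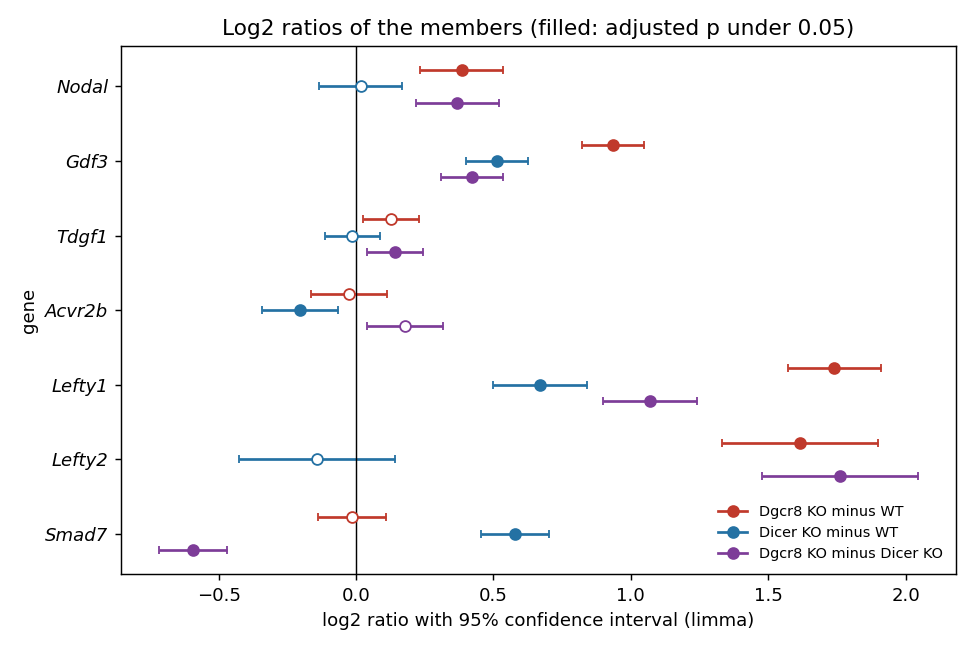
Log2 ratios (horizontal axis) of the 7 genes with 95% confidence intervals from limma, for each mutant over WT and for Dgcr8 KO over Dicer KO; filled points passed an adjusted p of 0.05. Lefty1 and Gdf3 are filled in all 3 comparisons, Lefty2 is at 1.62 for Dgcr8 KO over WT and at -0.14 for Dicer KO over WT, and Smad7 shows the reverse order of the mutants.

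Lefty1 and Gdf3 were called in each of the 3 comparisons, as were 10.4% of all transcripts. Across the 9 arrays their levels had a Pearson r of 0.98, the highest among the 21 pairs of members. Nodal had an r of 0.89 with Lefty1 and 0.89 with Lefty2, and Lefty1 and Lefty2 had an r of 0.86 with each other. Smad7 and Acvr2b had the lowest, -0.78. The arrays share 3 genotypes, so these values describe mainly the order of the genotype means. Of the 4 genes called in Dgcr8 KO against WT and the 3 called higher in Dicer KO against WT, each call was also made in all 9 fits that left out an array in turn. The log2 ratio in Dgcr8 KO then ranged from 1.66 to 1.82 for Lefty1, from 1.49 to 1.71 for Lefty2, from 0.89 to 0.97 for Gdf3 and from 0.33 to 0.43 for Nodal.

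The promoters of Nodal and Tdgf1, ligand and coreceptor, were searched for letters that the pathway's own factors are known to bind. RefSeq windows of GRCm38.p6, from 250 bases before to 50 bases after an annotated start of the gene, were available for 3 of the 7 genes. Acvr2b is the third. Searched on both strands were AATNCACA for Foxh1, held by 3.6% of the 32851 promoters in the table, and CAGAC for Smad proteins, held by 49.6%. Neither occurs in the Nodal window at chr10:61417722-61418021 (plus strand), which is shown as the start region of the ligand gene. The Tdgf1 window at chr9:110946109-110946408 (minus strand) holds 1 CAGAC, in capitals, whose first base is at -113 from the start. The Acvr2b window, at chr9:119401928-119402227 (plus strand), lies inside the gene positions given above, so it was set on a different start. It also holds 1 CAGAC, on the other strand, with its first base at -233 from that different start. AATNCACA is in neither of these windows. Matches are a description of the letters in these windows only.
Nodal: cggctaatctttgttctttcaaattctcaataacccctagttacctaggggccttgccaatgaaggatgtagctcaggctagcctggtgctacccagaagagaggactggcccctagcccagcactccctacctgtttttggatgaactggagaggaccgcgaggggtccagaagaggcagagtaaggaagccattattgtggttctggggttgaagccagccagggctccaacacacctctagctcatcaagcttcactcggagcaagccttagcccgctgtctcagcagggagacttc
Tdgf1: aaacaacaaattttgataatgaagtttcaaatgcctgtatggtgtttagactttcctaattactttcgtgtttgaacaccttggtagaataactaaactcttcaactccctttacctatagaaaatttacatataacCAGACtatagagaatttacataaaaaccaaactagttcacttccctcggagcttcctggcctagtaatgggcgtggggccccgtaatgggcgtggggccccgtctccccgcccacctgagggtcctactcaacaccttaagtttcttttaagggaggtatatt

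The rest of the pathway had calls in both directions. Of 62 other genes of the Nodal, Activin and TGF-beta pathway, 60 were matched to 61 transcripts. In Dgcr8 KO against WT, 20 transcripts were called higher and 5 lower (41% called, against 33% of all transcripts), with a median log2 ratio of 0.08 (-0.01 over all transcripts). In Dicer KO against WT, 19 were called higher and 14 lower (54.1%, against 36.8%), with a median of 0.03 (-0.06 over all transcripts). The 14 lower calls became 9 without Dicer KO replicate 1 and 9 with median-centred arrays. In Dgcr8 KO against Dicer KO, 8 were called higher and 13 lower (34.4%, against 24.6%), with a median of -0.00424 (0.03 over all transcripts). Nothing particular to the pathway is read from these shares. Among ligands and the proteases that activate them, 4 of 10 rose and 1 fell in Dgcr8 KO (50% called), and 2 rose and 4 fell in Dicer KO (60% called). Inhbb, the beta-B subunit of Activin and inhibin, had log2 ratios to WT of 0.34 in Dgcr8 KO (adjusted p = 0.00037) and 1.48 in Dicer KO (adjusted p = 2.89e-08), with a direct difference of -1.15. Furin, which cleaves the Nodal precursor, rose in both, by 0.29 in Dgcr8 KO cells (not called by SAM, adjusted p = 0.0655) and by 0.70 in Dicer KO cells. Pcsk6, a second convertase of Nodal, was higher in Dgcr8 KO, by 0.44 over WT, and lower in Dicer KO, at -0.19 (adjusted p = 0.0302). As background, 1.47% of all transcripts were called in opposite directions in the mutants. For Pcsk6 the Dicer KO call did not survive omission of WT replicate 1 (adjusted p = 0.0688), WT replicate 3 (0.0821), Dicer KO replicate 1 (0.0957) or Dicer KO replicate 3 (0.105), nor was it made by SAM (0.12). Tgfb1, a ligand with receptors of its own, fell by 0.60 in Dgcr8 KO cells, while its Dicer KO ratio was -0.02 (adjusted p = 0.783).

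Of 8 extracellular inhibitors other than the Lefty genes, 2 rose in Dgcr8 KO (25% called, against 33% of all transcripts), and 1 rose and 1 fell in Dicer KO (25%, against 36.8%). Fst, follistatin, which binds Activin, stood at 0.48 over WT in Dgcr8 KO (adjusted p = 0.00147), against -0.11 for Dicer KO (adjusted p = 0.353), with a direct difference of 0.59 (adjusted p = 0.000803). Nomo1, known from its zebrafish homolog as opposing Nodal signals, was up 0.21 in Dgcr8 KO cells (not called by SAM, adjusted p = 0.162) and 0.55 in Dicer KO cells. Ltbp1, which holds latent TGF-beta in the matrix, fell in Dicer KO, at -0.60, and had a ratio of -0.05 in Dgcr8 KO. Ltbp3 was not called in either mutant (-0.08 in Dgcr8 KO cells, -0.28 in Dicer KO cells) by limma, and by SAM it was called in Dicer KO (adjusted p = 0.0438). Among receptors, 5 of 10 rose in each mutant, where 15.7% of all transcripts rose in Dgcr8 KO and 17.8% in Dicer KO. Tgfbr1, the type I receptor of TGF-beta, rose by 0.67 in Dgcr8 KO cells and by 0.78 in Dicer KO cells, and its type II partner Tgfbr2 by 0.25 in Dgcr8 KO cells (not called by SAM, adjusted p = 0.0965) and 0.55 in Dicer KO cells. Eng, the coreceptor endoglin, rose by 0.47 in Dgcr8 KO cells and 0.57 in Dicer KO cells. Bmpr2, a BMP receptor, rose by 0.37 in Dgcr8 KO cells and 0.46 in Dicer KO cells. The call of Bmpr2 in Dgcr8 KO was lost without Dgcr8 KO replicate 2 (adjusted p = 0.0554) and without that array and WT replicate 1 together (0.0674).

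Inside the cell, Smad3, which carries the signal to the nucleus, rose in both mutants, by 0.57 in Dgcr8 KO (adjusted p = 1.48e-05) and 0.73 in Dicer KO (adjusted p = 2.33e-06). Smad2 rose in Dicer KO, at 0.33, and had a ratio of 0.17 in Dgcr8 KO (adjusted p = 0.0604, with 0.0435 without WT replicate 3 and 0.0444 without Dicer KO replicate 2). Zfyve9, which brings Smad2 and Smad3 to the receptor, rose by 0.46 in Dgcr8 KO cells and 0.68 in Dicer KO cells. Trim33, a nuclear partner of Smad2 and Smad3, fell by 0.40 in Dgcr8 KO and had a ratio of -0.16 in Dicer KO (adjusted p = 0.0809, with 0.0201 without WT replicate 1). Of 11 Smads and cofactors, 2 rose and 2 fell in Dgcr8 KO (36.4% called, against 33% of all transcripts). In Dicer KO 4 rose and 2 fell (54.5% called, against 36.8%). Of 14 transcripts of intracellular inhibitors, 5 rose and 2 fell in Dgcr8 KO (50% called, against 33%). In Dicer KO 6 of them rose and 6 fell (85.7% called, against 36.8%). Pmepa1, a feedback inhibitor induced by TGF-beta, rose by 0.77 in Dgcr8 KO cells and 1.21 in Dicer KO cells, with a direct difference of -0.43 (adjusted p = 0.000114). Smad6, an inhibitory Smad that acts mainly on BMP signals, rose by 0.73 in Dgcr8 KO cells and 0.88 in Dicer KO cells. Dact2 rose by 0.30 in Dgcr8 KO cells (not called by SAM, adjusted p = 0.0582) and 0.65 in Dicer KO cells. Skil, also called SnoN, a repressor of Smad targets, fell in both, at -0.48 for Dgcr8 KO cells and -1.08 for Dicer KO cells. Smad7 differs from Smad6 and Pmepa1 in that its call was made in Dicer KO and not in Dgcr8 KO.

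Targets of Nodal in the embryo were called about as often as all transcripts. Of 13 transcripts matched from 15 genes, 3 rose and 1 fell in Dgcr8 KO (30.8% called, against 33% of all transcripts), and 2 rose and 3 fell in Dicer KO (38.5%, against 36.8%). Among them Pmepa1 and Skil are also counted with the inhibitors. Hhex, a homeobox gene of the anterior endoderm, rose by 0.31 in Dgcr8 KO cells and by 0.30 in Dicer KO cells. The call of Hhex in Dgcr8 KO was lost without Dgcr8 KO replicate 1 (adjusted p = 0.0782), without Dgcr8 KO replicate 2 (0.0692) and without that array and WT replicate 1 together (0.0641), and by SAM (0.0684). In Dicer KO it was lost without Dicer KO replicate 1 (0.059) and without Dicer KO replicate 3 (0.0761). Otx2, a homeobox gene of the epiblast, was higher than WT in Dgcr8 KO cells (1.23) and lower in Dicer KO cells (-0.58), with a direct difference of 1.82 between Dgcr8 KO and Dicer KO (adjusted p = 9.66e-07). Gsc, a marker of the organizer, stood at 0.15 over WT in Dgcr8 KO cells and -0.05 in Dicer KO cells, and Eomes, a gene of the early mesendoderm, at -0.16 in Dgcr8 KO cells and 0.06 in Dicer KO cells, none of them called.

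**Figure D3:**
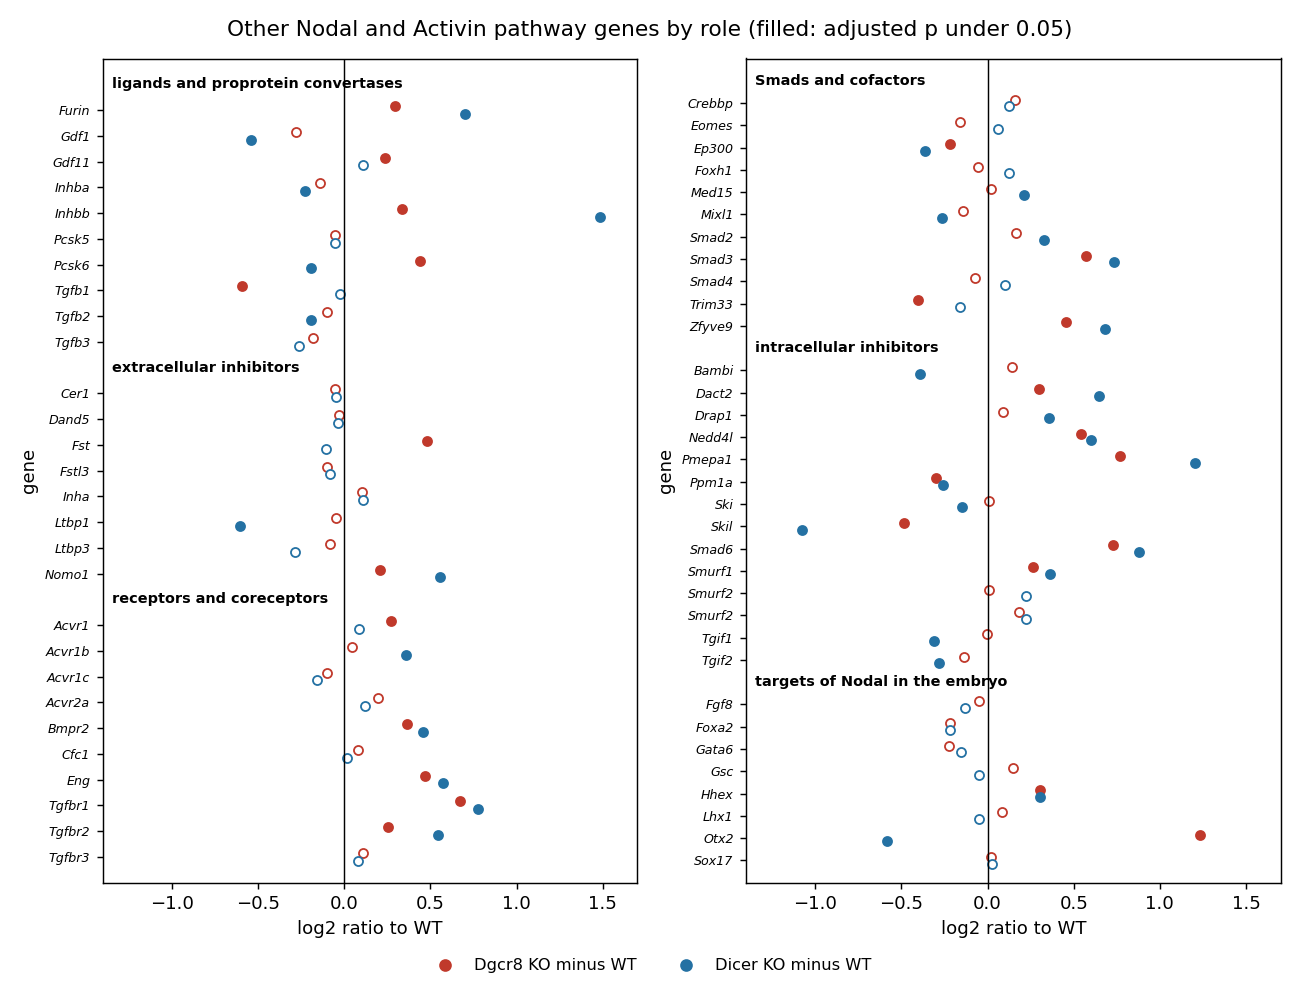
Log2 ratio to WT (horizontal axis) of 61 other pathway transcripts, grouped by role, in Dgcr8 KO (red) and Dicer KO (blue); filled points passed limma's adjusted p of 0.05, and a gene in several roles is drawn at its first. Otx2 and Pcsk6 lie on opposite sides of 0 in the mutants, and Inhbb and Pmepa1 lie farthest to the right in Dicer KO, at 1.48 and 1.21.

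Lefty1 and Lefty2 each had close companions among transcripts whose genotype means spanned at least 1 log2 unit. There were 1140 such transcripts with 1 symbol for each of them. The 4 most like Lefty1 over the 9 arrays were Plagl1, an imprinted transcription factor (r = 0.99), Mtr, methionine synthase (0.99), Acoxl, an acyl-CoA oxidase homolog (0.99), and Prune1, a phosphodiesterase (0.99). Each had Dicer KO between Dgcr8 KO and WT, with log2 ratios to WT from 1.03 to 2.63 in Dgcr8 KO and from 0.44 to 0.85 in Dicer KO. The 4 most like Lefty2 were C1qtnf9, a secreted protein (r = 0.99), the meiotic gene Rec114 (0.99), the bicarbonate transporter Slc4a4 (0.98) and the protease inhibitor A2m (0.98). Their log2 ratios to WT ran from 0.98 to 1.80 in Dgcr8 KO and from -0.32 to 0.08 in Dicer KO. The 4 most like Nodal, among 1141 transcripts, were Tek, a receptor of angiopoietins (0.96), Myof, myoferlin (0.96), the phosphatase Ptpn13 (0.96) and Zeb1, a zinc finger repressor (0.95). Those 4 had larger log2 ratios to WT in Dgcr8 KO, 0.91 to 1.90, than Nodal (0.38), whose own means span less than 1 log2 unit. In Dicer KO they ran from -0.11 to 0.15. None of these companions is on the pathway lists used here, but most pathway transcripts, and Gdf3 among the members, spanned too little to enter. Nothing about the pathway is read from their absence. These values are a description.

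**Figure D4:**
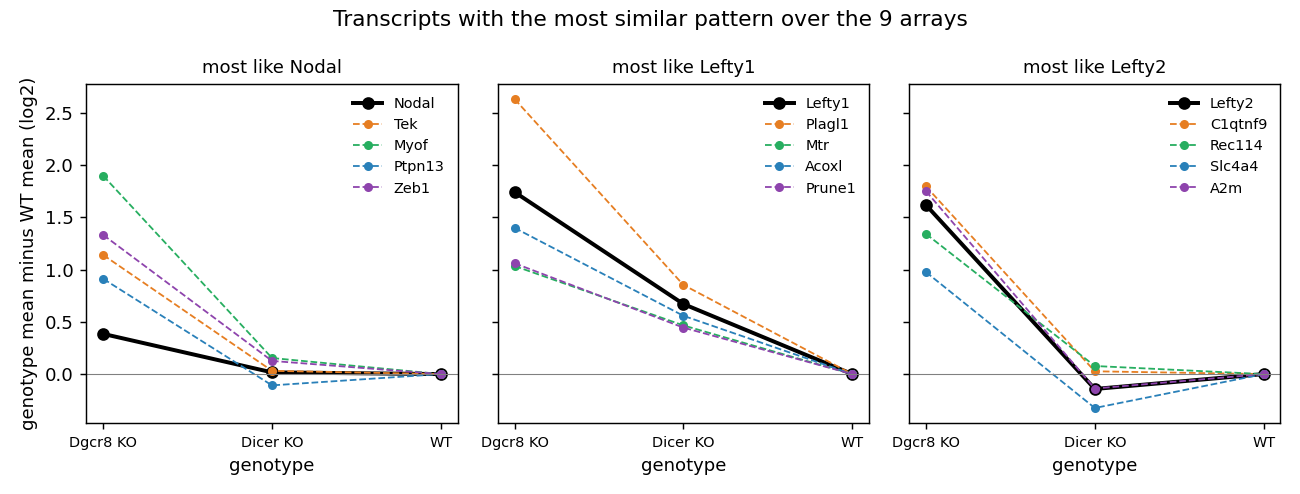
Mean log2 level of each genotype minus the WT mean (vertical axis) for Nodal, Lefty1 and Lefty2 (black) and the 4 transcripts most like each over the 9 arrays (dashed), with Dgcr8 KO, Dicer KO and WT from left to right. Companions of Lefty1 keep Dicer KO above WT by 0.44 to 0.85, and those of Lefty2 have it from -0.32 to 0.08.

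Markers of the labelled cell type and of cells that could be mixed with it moved as follows. ES cell markers averaged 10.54 to 10.60 on the Dgcr8 KO arrays, 10.43 to 10.49 on the Dicer KO arrays and 10.67 to 10.73 on the WT arrays, and they moved both ways. Of 11 transcripts of 10 such genes, 6 were called higher and 3 lower in Dgcr8 KO (81.8%, against 33% of all transcripts). In Dicer KO 6 were called higher and 4 lower (90.9%, against 36.8%). Nanog, a core pluripotency factor, rose by 0.77 in Dgcr8 KO cells and 1.10 in Dicer KO cells. Pou5f1, or Oct4, rose by 0.18 in Dgcr8 KO cells and 0.42 in Dicer KO cells. The transcript clusters of Dppa3, a germline and naive-state gene, fell in both mutants, with log2 ratios of -1.504 and -2.17 for Dgcr8 KO cells and -2.11 and -2.97 for Dicer KO cells. These were the largest falls among the ES cell markers, and both clusters count in the mean given above. The mean log2 level of 10 fibroblast and feeder markers ranged from 6.05 to 6.25 on the Dgcr8 KO arrays, from 6.08 to 6.15 on the Dicer KO arrays and from 6.10 to 6.31 on the WT arrays. By limma 0 of these 10 were called in Dgcr8 KO against WT (0 at an unadjusted p under 0.05 and 0 by SAM) and 1, Dcn, was lower in Dicer KO (adjusted p = 0.0376, with 0 of 10 called by SAM). Primitive endoderm markers averaged 5.84 to 6.01 on the Dgcr8 KO arrays, 5.78 to 5.84 on the Dicer KO arrays and 6.0 to 6.17 on the WT arrays. Of their 9 transcripts, 1 was called higher and 1 lower in Dgcr8 KO, and 0 higher and 2 lower in Dicer KO (22.2% in each). In Dgcr8 KO the higher one was Gata4 (0.35) and the lower one a cluster of Dab2 (-1.13). Primitive streak and mesendoderm markers averaged 6.21 to 6.35 on the Dgcr8 KO arrays, 6.13 to 6.22 on the Dicer KO arrays and 6.28 to 6.32 on the WT arrays. Of these 5, 0 were called in Dgcr8 KO, and 0 higher and 2 lower in Dicer KO (40%, against 36.8% of all transcripts). The lower ones were Mesp1 (-0.31, adjusted p = 0.0384 by limma) and Mixl1 (-0.26, 0.0334), which is also counted with the targets of Nodal. SAM called 1 of the 5 in Dicer KO. Epiblast markers averaged 8.41 to 8.42 on the Dgcr8 KO arrays, 8.29 to 8.41 on the Dicer KO arrays and 8.86 to 8.87 on the WT arrays. Among these 6, 2 were called higher and 3 lower in Dgcr8 KO (83.3%), and 1 higher and 5 lower in Dicer KO (100%). Trophoblast markers averaged 7.15 to 7.22 on the Dgcr8 KO arrays, 7.57 to 7.62 on the Dicer KO arrays and 7.63 to 7.64 on the WT arrays. Of these 8, 0 were called higher and 3 lower in Dgcr8 KO (37.5%), and 2 higher and 2 lower in Dicer KO (50%). The keratins Krt8 and Krt18 fell by 1.42 and 2.00 in Dgcr8 KO and had ratios of -0.45 and -0.52 in Dicer KO. Those called higher in Dicer KO were Elf5 (0.41) and Gata3 (0.44). The part of these differences in the levels of the Nodal and Lefty genes was not tested.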

How the data were processed

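RNA of Dgcr8 KO, Dicer KO and WT ES cells was hybridized to Affymetrix mouse gene ST arrays. The deposited values are log2 signals that the authors normalized with RMA per the paper, or GCRMA per the processing notes. Their versions: not given in the sources used here. Values were used as deposited. Signal over background is unknown, so whether dim transcripts were detected was not tested. Separately, the 3 arrays per genotype limit the precision. Groups came from the sample labels.

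Clusters with no symbol (12147 of 35557), holding only miRNA genes (326), mitochondrial (4) or on chromosome Y (78) were left out, and 23002 were tested. Of the pathway transcripts, that of Gdf1 carries 2 symbols. limma 3.58.1 in R 4.3.3 estimated 1 mean for each genotype from the 9 arrays together (lmFit, eBayes, 6 residual degrees of freedom). SAM, the methods' test, was written anew and used as an alternative. The value given as its adjusted p is a false discovery rate from permuted labels. SAM's constant, added to the spread of each transcript, was 0.741 in Dgcr8 KO against WT, 0.469 in Dicer KO against WT and 0.162 in the direct comparison. In that order it called 22.3%, 31.6% and 36.5% of all transcripts. Scripts were tested on simulated data. Gene symbols are those of the platform annotation. RefSeq gave positions, matched by symbol.

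Named were all members, up to 4 genes per role list with the smallest adjusted p over the 3 comparisons and those called in opposite directions, and the 4 transcripts most like Nodal, Lefty1 and Lefty2. Gsc, Eomes and the single markers were named after their values were seen. The members, lists and tests were chosen with earlier results of these data known. In all 22 alternatives were planned and 1 was added.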

Additional observations from a re-analysis of the deposited data

Results flagged for a closer look

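The direct comparison of the mutants tests whether the difference from WT is the same in both. In it 6 of the 7 genes passed the threshold, as did 24.6% of all transcripts. These log2 ratios to WT differed between Dgcr8 KO and Dicer KO by 0.37 for Nodal (0.38 and 0.02), by 1.07 for Lefty1 (1.74 and 0.67), by 1.76 for Lefty2 (1.62 and -0.14), by 0.14 for Tdgf1 (0.13 and -0.01) and by 0.42 for Gdf3 (0.93 and 0.51), with the Dgcr8 KO ratio given before that of Dicer KO. For Smad7 the difference was -0.59 (-0.02 and 0.58). The adjusted p of these differences by limma ran from 1.26e-05 for Lefty1 to 0.0475 for Tdgf1. Tdgf1 stayed past the threshold in 1 of 9 fits that each left out an array. The count of genes called was 7 by SAM (36.5% of all transcripts) and 5 with median-centred arrays (24.1%). It was 3 with at least 1.5-fold required (4.95%). Lefty2, Tdgf1, Nodal and Smad7 were each called against WT in at most 1 mutant.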

How the results depend on the processing

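Requiring at least 1.5-fold as well lowered most counts: among the 7 genes 1 was called in Dicer KO against WT and 3 in Dgcr8 KO against Dicer KO, and among the pathway transcripts 5 in Dgcr8 KO, 11 in Dicer KO and 5 in the direct comparison. Over all transcripts that requirement left 9.06% called in Dgcr8 KO against WT, 10.9% in Dicer KO against WT and 4.95% in the direct comparison. By SAM 16 pathway transcripts were called in Dgcr8 KO against WT, in place of 25, and 22.3% of all transcripts, in place of 33%. All other totals of members and pathway transcripts stayed within 1.5 times. Split by direction, pathway calls that were higher in Dgcr8 KO against WT numbered 12 by SAM (20 by limma). The 14 lower in Dicer KO became 9 with median centring, 9 without Dicer KO replicate 1 and 8 at an adjusted p under 0.01, and the 13 lower in the direct comparison became 7 at that threshold. Of 483 values of single members under alternatives, 442 kept their side of the threshold and direction, 29 lost a call, 12 gained it and 0 reversed. Calls of Lefty1 and Lefty2 held under every alternative, and those of Gdf3, Nodal and Smad7 under all but the 1.5-fold requirement. There Nodal lost both calls, Gdf3 kept only that in Dgcr8 KO against WT, and Smad7 lost that in Dicer KO against WT and kept that in Dgcr8 KO against Dicer KO. Acvr2b in Dicer KO was not called by SAM (0.103) or with median-centred arrays (adjusted p = 0.106). Tdgf1 in Dgcr8 KO was called by cyclic loess (0.005) and with quantile normalization repeated (0.0134). It was also called with the dimmest 25% left out (0.0342) and with trended, robust variances (0.00216). SAM and median centring did not call it. In the direct comparison Tdgf1 was lost with median centring (adjusted p = 0.269). There Acvr2b was gained by SAM (0.0319), by cyclic loess (0.0235) and with repeated quantile normalization (0.0161). Acvr2b was also gained without the dimmest 25% (0.0446) and with trended, robust variances (0.0456). Members called there numbered 7 with array weights (32.5% of all transcripts) and 5 with only the 6 mutant arrays (26.1%). With the replicate number as a block, 5 members were called in the direct comparison, Tdgf1 being lost (adjusted p = 0.0582), and 4 in each comparison with WT. For the pathway transcripts the block gave 25, 32 and 20 in Dgcr8 KO against WT, Dicer KO against WT and the direct comparison. Of all transcripts the block called 32.8%, 37.1% and 24.6%, in the same order. The deviations of same-numbered arrays were mixed: r was over 0.1 in 5 of 9 pairs, among them the 3 pairs of replicate 2, and ranged from -0.20 to 0.34. The numbers were not taken as pairs, which would need every r over 0.1.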
